A study of Rattus norvegicus with 8 samples.

Results

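The 1993 short-probe runs of high signal described here were stretches of promoter DNA in the rat prefrontal cortex (PFC) that were covered by probes of short length and carried a strong methylation signal. They were chosen from 20412 autosomal runs, a run being at least 8 neighbouring probes with gaps of at most 500 bp. A run was kept when at least 33.3% of its probes were shorter than 60 bases and when its mean log2 ratio of the antibody-bound over the input DNA, averaged over all 8 arrays, lay in the top 10% of all runs. The mean log2 ratio and the share of short probes therefore fixed the members and are described without a test. The tiling design of the array shortened probes for sequence that would bind too tightly, so a short probe stood in for GC-rich sequence. The GC content itself was not measured, because no rn4 genome was used here. As a marker it was broad, since 58.6% of the probes in these runs were short and 16268 of the 20412 runs (79.7%) passed the limit on short probes, of which 12.3% were kept. The runs were not tied to genes and are given by their position in rn4 (RGSC 3.4).

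DNA methylation in mammals is found mainly at cytosines of CpG dinucleotides. Most GC-rich promoters, which are often CpG islands, stay free of it, whereas some, such as those of germline genes or on the silent allele of imprinted genes, are densely methylated in the brain. In MeDIP, an antibody against 5-methylcytosine pulls down sheared single-stranded DNA, and its yield depends on how many methylated cytosines a fragment holds as well as on the methylated share. A high ratio at a GC-rich stretch therefore marks much 5-methylcytosine per fragment, and it is not a percentage of methylation.

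All animals were male Sprague-Dawley rats at PND62, 1 from each litter. The PFC was dissected from brain slices as defined sub-regions and was not sorted by cell type, so neurons, glia and vessels were measured together. The 4 Ctrl rats, C180, C182, C184 and C185, were born to undisturbed dams, and the 4 PNS rats, numbered C141, C142, C144 and C145, were born to dams that were restrained under bright light several times daily in the last week of gestation. Each rat had 1 array, and each of the 4 slides carried a Ctrl rat at array position 1 and a PNS rat at position 2, so that group and position cannot be told apart. The arrays of C180, C182 and C141 stood apart from the others. Their log2 ratios had an SD of 0.62 to 0.71 before normalization, against 0.99 to 1.23 on the other 5 arrays. Over all runs the arrays of wider spread correlated with each other at 0.91 to 0.95, and C141 correlated with the other arrays at 0.54 to 0.66. The share of spots well above background was 61.0 to 72.9% in the input and 43.6 to 67.1% in the bound channel. The comparison of the groups is given with and without them.

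The mean log2 ratio of the members reached from 0.58 to 3.22 with a median of 0.92, whereas the median over all runs was -0.20. A mean above 1 was seen in 822 members (41.2%) and above 2 in 74 (3.71%). The 3 members with the lowest mean, at chr2:33608053-33609307, chr10:97214220-97215437 and chr7:92426308-92427436, had 0.58 on the log2 scale, and so had the 3 short-probe runs just outside the limit, at chr3:142919879-142920627, chr4:161722427-161723675 and chr10:11173731-11174991, so the limit cut a continuous distribution. Only 49 of the 2042 runs in the top 10% had too few short probes to be kept. The share of runs above the signal limit was 0% among the 500 runs built only of 60-base probes, whose highest mean was 0.45, then 1.34, 4.80, 9.36 and 15.7% in runs with rising shares of short probes, and 20.4% among the 2275 runs made only of short probes. Low signal was also found mostly in runs with short probes. Of the 16268 short-probe runs, 1898 lay in the bottom 10% of all runs, with a mean of at most -0.65. The share of runs this low was 0.4% among those built only of 60-base probes. It was 3.90, 9.89, 13.9 and 12.1% with rising shares of short probes, and 7.30% among runs made only of short probes. The runs built only of 60-base probes were dim. Depending on the array, 8.59 to 18.7% of their input probes were well above background, against 61.5 to 73.3% over all runs. Their median input signal relative to the array median was -2.85 to -2.37 on the log2 scale. Whether probe brightness shaped the rise in high signal with the share of short probes was not tested.

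**Figure D1:**
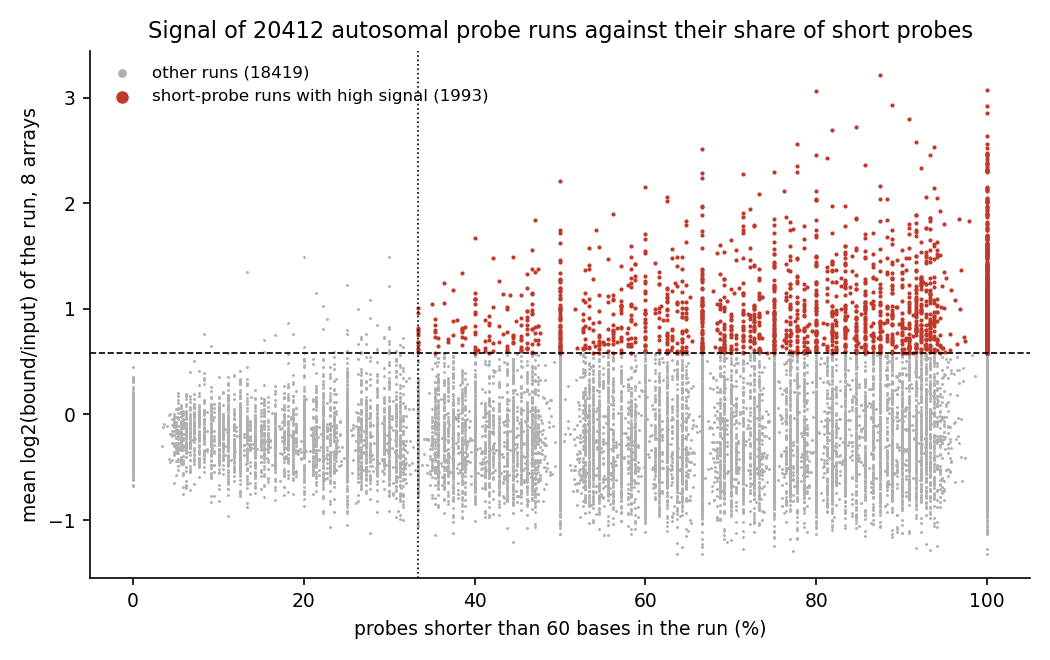
Mean log2 ratio of bound over input DNA of each of 20412 autosomal runs (vertical axis, mean of 8 arrays) against the percentage of its probes shorter than 60 bases (horizontal axis). Red points are the 1993 short-probe runs of high signal, the dashed line is the signal limit of 0.58 and the dotted line the limit of 33.3% short probes. The share of points above the signal limit grows with the share of short probes. Low points are most frequent at 50 to under 75% short probes.

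A typical member held 14 probes over 1173 bp, which is close to the median of all runs (14 probes over 1165 bp) and to the promoter window that the array tiles. A median of 83.3% of its probes was short, and 463 members (23.2%) had only short probes, against 11.1% of all runs. The signal was spread along the run. In 1146 members (57.5%) every probe had a mean log2 ratio above 0, which held for 6.56% of all runs, and the lowest probe of the median member was at 0.08. In 23 members at least 1 probe lay below -1. The profile by distance from the centre of the run was flat. The mean log2 ratio over 1841 members of at most 1500 bp was 1.05 within 99 bp of the centre and 0.99 at 500 to 599 bp from it. The 2 ends of a run could still differ. The means of the probes on either side of the midpoint of the run differed by a median of 0.47 on the log2 scale in members, against 0.30 over all runs.

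The run with the highest signal lay at chr5:135205476-135206712, with 16 probes of which 14 were short. Its mean log2 ratio was 3.07 in C180, 3.04 in C182, 3.32 in C184 and 3.45 in C185 (Ctrl), and 2.55 in C141, 3.41 in C142, 3.43 in C144 and 3.49 in C145 (PNS), the order in which values are given below. Every probe of it was high, from 2.89 to 3.80, and only C141 fell below the Ctrl rats. The second, at chr9:68238948-68239827, had 8 probes, all short, and log2 ratios of 3.42, 3.37, 3.35 and 3.49 in Ctrl and of 1.55, 2.99, 3.05 and 3.35 in PNS rats. The third, at chr1:263130396-263131238, averaged 3.06 over 10 probes that ranged from 0.48 to 4.91. Here the 4 probes at the end of the run, all of 45 bases, were the brightest, at 4.26 to 4.91. The next were chr3:165212553-165213745 (2.93), chr3:41363191-41364420 (2.92), chr18:31119041-31120212 (2.85), chr1:87790458-87791373 (2.80) and chr3:98403033-98404286 (2.72), and all 17 probes of the chr3:41363191-41364420 run lay between 2.69 and 3.33.

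Even and uneven runs were found at all levels. The most even was chr5:148718342-148719073, whose 10 short probes lay between 0.73 and 1.10 (SD 0.11), followed by chr10:67502021-67503092 (0.54 to 0.90) and chr9:8171071-8171634 (1.39 to 1.87). The most uneven was chr8:49256246-49257316, which averaged 0.73. A pair of its 11 probes, both of 45 bases and overlapping by 41 bp, read 4.54 and 4.57, and the other 9 lay between -0.50 and 0.70. The mean of this run rests on that pair. At chr12:22471867-22474331 the first 19 of 27 probes lay between -0.50 and 0.67 and the last 8 between 2.51 and 4.07, and at chr2:127651446-127652679 the last 4 of 14 probes lay between 2.79 and 3.41 and the first at 0.17. The longest members, chr1:202676310-202686447 with 113 probes, chr4:6207040-6216226 with 111 and chr4:161438495-161447604 with 106, spanned several neighbouring windows at means of 0.87, 1.02 and 0.79.

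In both channels the members were brighter than the array. The input signal of the median member lay 0.66 to 0.86 above the array median on the log2 scale, and its bound signal 1.02 to 2.87 above it. The bound signal was lowest on the 3 arrays of narrow spread (1.57 in C180, 1.37 in C182 and 1.02 in C141) and 2.40 to 2.87 on the others. The low-signal short-probe runs had a lower input on each array, 0.42 to 0.55 above the array median, and a bound signal of -0.30 to 0.23. Since the ratio of the channels chose both kinds of runs, their gap in bound relative to input signal is a description. Between 80.5 and 89.2% of the members' input probes were well above background, compared with 61.5 to 73.3% over all runs.

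**Figure D2:**
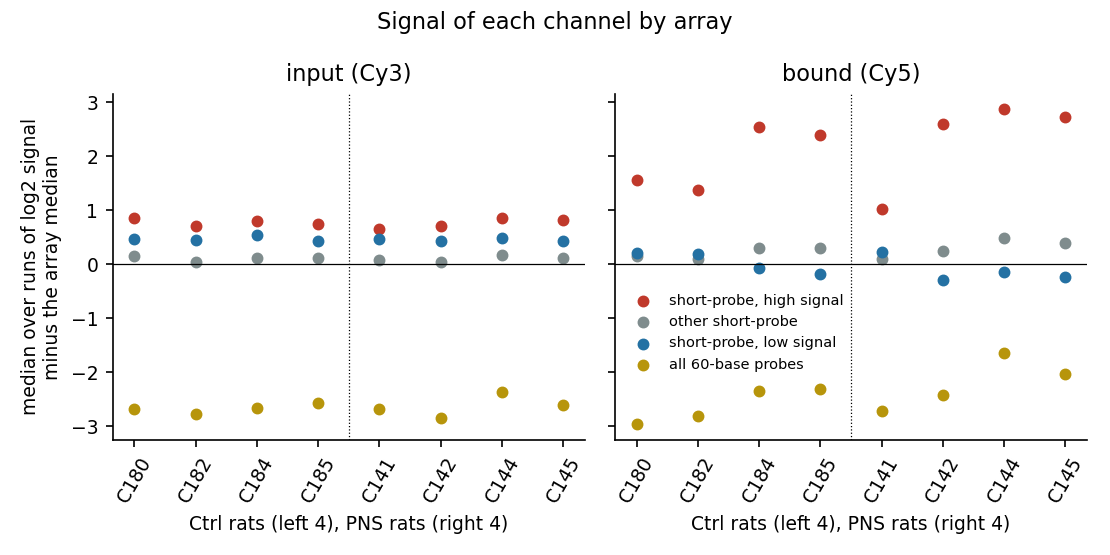
Median over runs of the log2 signal minus the array median (vertical axis) in the input channel and the bound channel for each rat (horizontal axis, Ctrl left and PNS right of the dotted line). The short-probe runs of high signal (red) and of low signal (blue) lie at 0.66 to 0.86 and 0.42 to 0.55 in the input channel, and in the bound channel red lies between 1.02 and 2.87 and blue between -0.30 and 0.23.

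The short probes carried more of the signal than the 60-base probes of the same runs. Among 1233 members with enough probes of each kind, the short probes exceeded the 60-base probes by 0.43 ± 0.06 on the log2 scale (mean ± SD of 8 arrays, lowest 0.33 in C141 and highest 0.54 in C180). In the other short-probe runs, 10999 of which could be compared, the difference was -0.01 ± 0.16 and its sign changed between arrays, from -0.24 in C144 to 0.28 in C180. A median of 83.3% of the members' probes was short, so the choice by run mean favoured runs whose short probes read high. The contrast between the members and the other short-probe runs is therefore only a description. By length, the median log2 ratio of the members' probes was 1.08 at 45 bases, 1.01 at 46 to 50, 0.96 at 51 to 55, 0.94 at 56 to 59 and 0.60 at 60 bases. The 60-base probes were also dim, with an input signal of -1.42 relative to the array median against 1.75 for the probes of 45 bases. With only probes of bright input on all arrays the difference within runs was 0.16. That value covered 523 runs in place of 1233, so the sets of runs differ. The share of probe brightness in this difference was not tested.

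Members lay near each other more often than the other runs did. The next run along the chromosome was also a member for 403 of the 1993 members (20.2%) and for 8.64% of the 18399 other runs that had a next run. Within 10 kb the shares were 23.8 and 7.65%, and beyond 100 kb they were 15.0 and 8.20%. Neighbouring runs can belong to 1 gene with several start sites, so these are not independent and no test was made. Of the members, 1288 stood alone, 233 pairs and 46 triplets followed each other without another run between them, and 2 series held 6 runs each. The first covered chr7:140115708-140268943 with a mean log2 ratio of 0.89 and the second chr17:10837432-11040594 with 1.44. Another series of 5 runs lay close to the first, at chr7:140589974-140722279, with 1.37, and a pair of series of 5 lay side by side at chr10:89034472-89086689 and chr10:89148236-89200733. By chromosome the share of runs that were members was highest on chromosomes 20 (81 of 567, 14.3%), 19 (13.5%) and 10 (11.9%), and lowest on chromosome 17 (41 of 615, 6.67%), which still held 1 of the longest series.

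Across rats the level of the members varied more within the groups than between their means. Each rat had 1 array, so rat and array cannot be told apart. The median log2 ratio over the 1993 members was 0.80, 0.73, 1.12 and 1.14 in the Ctrl rats and 0.43, 1.11, 1.09 and 1.11 in the PNS rats, in the same order. The values of C180, C182 and above all C141 were low, those of the other 5 rats were nearly equal, and the groups overlapped (0.95 ± 0.21 in Ctrl and 0.93 ± 0.34 in PNS, mean ± SD, n = 4 each). These were the arrays of narrow spread, and their part in this pattern was not tested. As many as 717 members (36.0%) lay in the top 10% of runs on each of the 8 arrays taken alone, and 1710 on at least 5. In C141 only 1047 of the members (52.5%) did so, compared with 74.6 to 90.2% on the other arrays. Over the members, the run means of the 5 arrays of wider spread correlated at 0.82 to 0.94, C180 and C182 correlated with these 5 at 0.70 to 0.80, and C141 correlated with the other 7 at 0.45 to 0.66. These are correlations across runs of the same arrays, which share the choice of runs. Members spotted more than once gave a measure of technical error. The spots of 2812 repeated member probes correlated at 0.65 to 0.91 within an array, against 0.45 to 0.82 for all 39272 repeated probes.

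**Figure D3:**
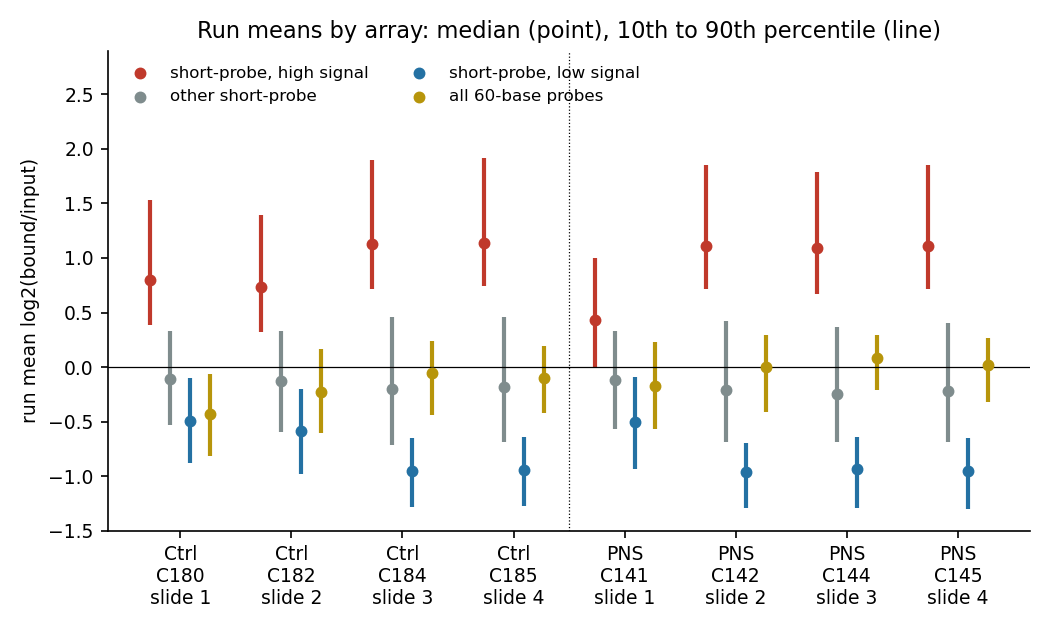
Run mean log2 ratio by rat (horizontal axis, with group and slide) for 4 kinds of runs; points are medians over runs and lines reach from the 10th to the 90th percentile. The short-probe runs of high signal (red) have medians of 1.09 to 1.14 on 5 arrays and of 0.80, 0.73 and 0.43 on those of C180, C182 and C141, where the low-signal runs (blue) are also closer to 0.

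Single members differed in how steady they were. The steadiest was chr7:136525819-136527407, with log2 ratios of 0.67, 0.66, 0.63 and 0.57 in Ctrl and 0.58, 0.63, 0.56 and 0.62 in PNS rats (SD over arrays 0.04). The least steady was chr14:92911497-92912161, with 1.48, 1.60, 3.36 and 3.43 in Ctrl and 0.98, 2.17, 2.40 and 2.52 in PNS rats (SD 0.87). The groups overlapped and differed by -0.45 (unadjusted limma p of 0.36), and by -1.14 without the 3 arrays of narrow spread (limma adjusted p of 0.013). This run was named for its spread over arrays, which includes the difference between the groups. Those 3 arrays were left out after seeing the data, and 10.1% of all runs then had a limma adjusted p below 0.2. The value therefore adds no support. At chr1:206801805-206802933 the ratio was 0.93, 1.05, 2.23 and 2.14 in Ctrl and -0.19, 1.70, 1.81 and 1.94 in PNS rats. Here C141 read below 0 while the other 3 PNS rats lay near each other. The median SD over the 8 arrays was 0.34 in members and 0.24 over all runs, and over the 5 arrays of wider spread it was 0.14 in each.

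PNS and Ctrl rats were compared to ask whether restraint of the dams left a difference in methylation in the adult offspring. The difference between the groups did not enter the choice of members, because the signal that chose them was the average of all 8 arrays. A limma p of at most 0.05 was found for 36 of the 1993 members (1.81%), 15 higher and 21 lower in PNS rats, against 3.82% of all 20412 runs (1.99% higher and 1.83% lower). Both directions lay below the background in this fit. None of them had an adjusted p below 0.2 in limma, the background being 0%, and the smallest adjusted p was 1.00. The median difference of the members was -0.03 on the log2 scale against -0.01 over all runs, and 1119 members (56.1%) lay below 0, against 51.5% of all runs. The direction depended on the scaling, since median centring of the arrays, used instead of quantile normalization, left 13 members with such a p, 12 higher and 1 lower (background 3.9%, of which 1.04% higher and 2.86% lower), and a median difference of 0.19. Normexp background correction was likewise followed by median centring, so it was not a change of background correction alone. With it there were 16 such members, 12 higher and 4 lower (background 4.12%, of which 0.554% higher and 3.56% lower).

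The slides did not move together. The median difference between the PNS and the Ctrl rat of a slide over the members was -0.40 on slide 1 (C141 and C180), 0.40 on slide 2 (C142 and C182), -0.06 on slide 3 and -0.04 on slide 4. Over all runs, after quantile normalization, it was -0.009, 0.010, -0.002 and -0.004 in the same order. On slide 1, 1718 of the members (86.2%) were lower in the PNS rat, and on slide 2, 1758 were higher, and each of these slides held at least 1 array of narrow spread. With the slide as a replicate block, 77 members had a limma p of at most 0.05, 23 higher and 54 lower (background 5.26%, of which 2.48% higher and 2.77% lower), and 0 had an adjusted p below 0.2. Without C141, 245 members had such a p, 237 of them higher and 8 lower in PNS (background 11.3%, of which 5.3% higher and 6% lower), and again 0 had an adjusted p below 0.2. Without all 3 arrays of narrow spread, which left 2 Ctrl and 3 PNS rats, 484 members had such a p, 154 higher and 330 lower (background 17.3%, of which 7.74% higher and 9.52% lower). In this fit 314 members had a limma adjusted p below 0.2, 94 higher and 220 lower, against 10.1% of all runs. As a share of the members, the runs with a limma p of at most 0.05 lay below the background with the slide block (3.86 against 5.26%). They lay above it without C141 (12.3 against 11.3%) and without the 3 arrays (24.3 against 17.3%). The direction and the number of calls among the members therefore changed with the arrays included.

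The groups did not overlap in 20 members (1.00%), 6 higher and 14 lower in PNS, against 3.25% of all runs (1.79% higher and 1.46% lower). An exact permutation test of 4 against 4 arrays has 70 assignments and cannot go below a p of 0.029, which each of these runs has by its selection. The selection also fixed the direction on each of the 4 slides and favoured a low limma p, so neither adds support. The widest gap was at chr13:105522373-105523830. Its 4 Ctrl rats read 1.15, 1.87, 2.44 and 2.66 and its 4 PNS rats 1.09, 0.86, 0.56 and 1.08, in the order of the slides. The PNS rats were close to each other and the Ctrl rats were spread, with C180 only just above the highest PNS rat. The difference was -1.13 ± 0.28 (SE) on the log2 scale with an unadjusted limma p of 0.0019, and within the 4 slides it was -0.06, -1.01, -1.88 and -1.58. All 18 probes of the run were lower in PNS, and 15 passed the first stage of the study's analysis, an unadjusted p of at most 0.05 with a difference of at least 0.5. The signal rose along this run, from 0.96 ± 0.76 to 3.10 ± 0.61 in Ctrl and from -0.24 ± 0.44 to 2.04 ± 0.27 in PNS rats (mean ± SD, n = 4, first 9 and last 9 probes), with a similar difference at each end (-1.20 and -1.07). Without the 3 arrays of narrow spread the difference was -1.97 with a limma adjusted p of 4.4e-04. In that fit 10.1% of all runs had an adjusted p below 0.2. The choice of runs without overlap also fixed the separation of the groups on the arrays that were left. This value and those given below for the other runs without overlap therefore add no support.

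Among the other members that were lower in PNS, chr19:57356588-57357561 read 1.54, 1.56, 1.62 and 1.46 in Ctrl and 0.20, 1.11, 1.18 and 1.16 in PNS rats (difference -0.63 ± 0.21, SE). All 13 probes were lower, and C141 lay far below the other PNS rats. At chr20:11570356-11571500, with 12 short probes, Ctrl rats read 1.84, 1.71, 1.85 and 1.81 and PNS rats 0.72, 1.63, 1.09 and 1.30 (-0.62 ± 0.18). Ctrl rats were tightly grouped in both of these runs, including C180 and C182. The remaining 3 named runs were chr9:90579365-90580504 (-0.56 ± 0.20), chr9:9933581-9934410 (-0.50 ± 0.17) and chr5:152318551-152319473 (-0.39 ± 0.16), with unadjusted limma p of 0.016, 0.011 and 0.034. With median centring none of these last 5 had a p of at most 0.05. The difference was then -0.31, -0.32, -0.20, -0.44 and -0.20 in the order given, so that chr9:9933581-9934410 kept most of its size (p of 0.085), and with normexp correction this run had a p of 0.018. On the 5 arrays of wider spread it differed by -0.88 with a limma adjusted p of 0.042. The other 4 then differed by -0.47, -0.58, -0.40 and -0.42, with limma adjusted p of 0.11, 0.12, 0.15 and 0.14.

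Of the 6 members higher in PNS, chr1:180713576-180715040 differed most. It read 0.45, 0.26, 0.30 and 0.45 in Ctrl and 0.67, 1.18, 1.00 and 0.82 in PNS rats, with 17 of 18 probes higher. The difference was 0.55 ± 0.14 (SE) on the log2 scale (unadjusted limma p of 0.0025), and 5 probes passed the first stage. On the 5 arrays of wider spread it was 0.75 with a limma adjusted p of 0.048. At chr1:189294313-189295151 Ctrl rats read 0.31, 0.19, 0.47 and 0.60 and PNS rats 0.86, 0.72, 0.73 and 0.89 (0.40 ± 0.13). At chr15:34029020-34030201 they read 0.54, 0.41, 0.56 and 0.81 against 0.90, 0.90, 0.88 and 1.14 (0.38 ± 0.14). In the last pair of runs C141 did not stand below the other PNS rats. At chr4:4369073-4370206 the difference was 0.36 ± 0.14, and the last 2, chr5:156558557-156559742 (0.22 ± 0.13) and chr5:154165947-154167206 (0.15 ± 0.12), had unadjusted limma p of 0.11 and 0.24 although their groups did not overlap. Without the 3 arrays the unadjusted limma p moved from 0.011 to 0.051 at chr1:189294313-189295151 and from 0.11 to 0.038 at chr5:156558557-156559742. All 6 lay near the lower end of the members, with means of 0.59 to 0.77.

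**Figure D4:**
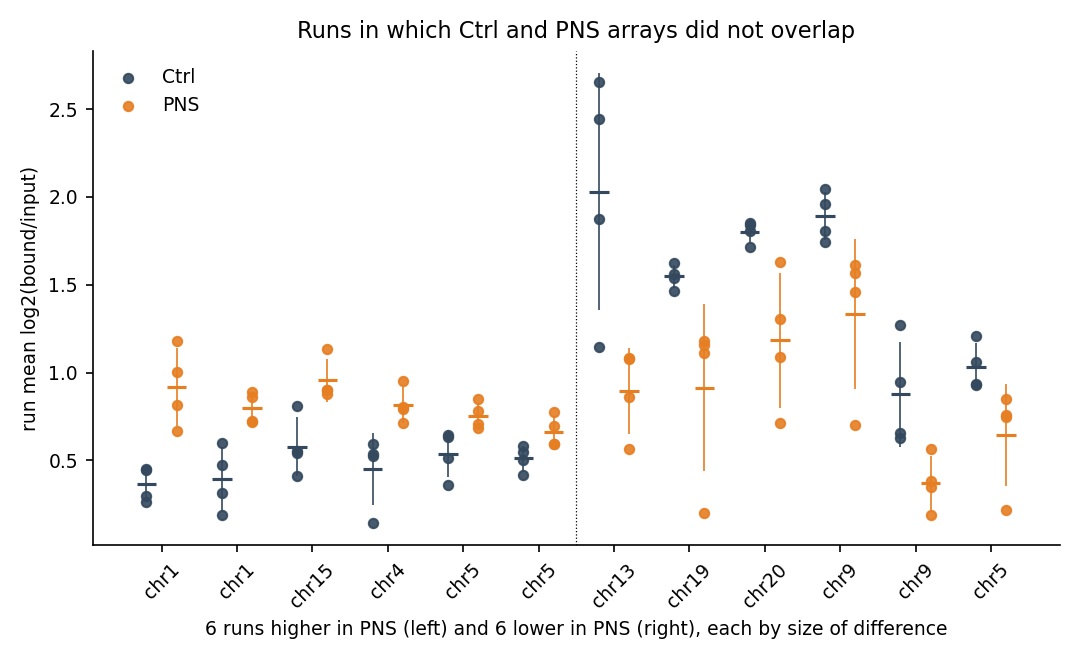
Run mean log2 ratio of each rat (points) in the 12 named members in which Ctrl (blue) and PNS (orange) arrays did not overlap, with the group mean (bar) and SD (line, n = 4). The runs are ordered by the size of the difference within the 6 higher and the 6 lower in PNS, named by chromosome; the first of the lower runs (chr13) has PNS values of 0.56 to 1.09 and Ctrl values of 1.15 to 2.66.

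**Figure D5:**
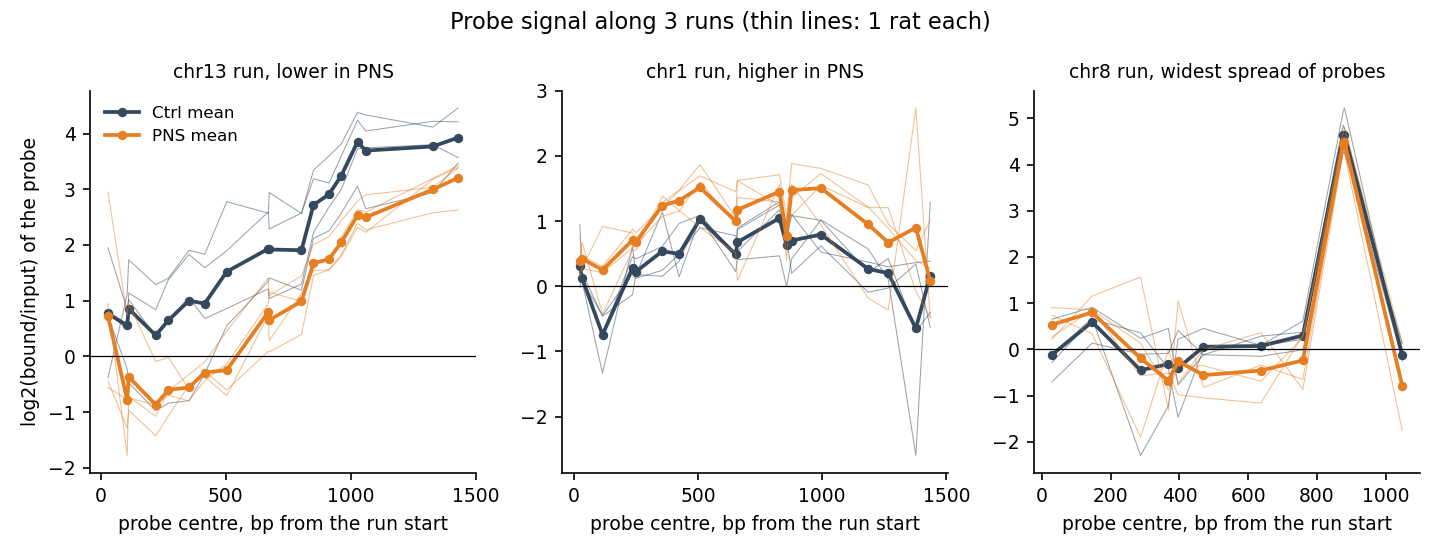
Log2 ratio of each probe against the distance of its centre from the start of the run (bp) in 3 members: chr13:105522373-105523830 (18 probes), chr1:180713576-180715040 (18 probes) and chr8:49256246-49257316 (11 probes). Thick lines with points are the means of 4 rats and thin lines single rats; the chr13 run rises along its length with PNS below Ctrl, and the chr8 run is near 0 except at a pair of overlapping probes of 4.54 and 4.57.

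Of the 8 members with the highest signal, chr1:87790458-87791373 was the one with an unadjusted limma p at or under 0.05 in the fit of 8 arrays without a block. It read 2.48, 2.16, 2.44 and 2.68 in Ctrl and 2.21, 3.59, 3.58 and 3.30 in PNS rats (0.73 ± 0.27, unadjusted limma p of 0.021), with 7 of its 11 probes past the first stage. The 3 PNS rats other than C141 lay above all Ctrl rats, and on slide 1 the PNS rat was the lower one by -0.26. The groups overlapped and the exact permutation p was 0.11. Without the 3 arrays of narrow spread the difference was 0.98 with a limma adjusted p of 0.025. With the slide as a replicate block another 3 of the 8 had a limma p of at most 0.05, namely chr3:165212553-165213745 (-0.71, p of 0.0039), chr3:41363191-41364420 (-0.47, p of 0.018) and chr9:68238948-68239827 (-0.67, p of 0.025). Without this block their p were 0.053, 0.20 and 0.054. The chr3:165212553-165213745 and chr9:68238948-68239827 runs were lower in the PNS rat on 4 of 4 slides, and the chr3:41363191-41364420 run on 3 of 4. On the 5 arrays of wider spread the differences were -0.73, -0.73 and -0.31, with limma adjusted p of 0.047, 0.040 and 0.30. These arrays were chosen after seeing the data, and 10.1% of all runs had a limma adjusted p below 0.2 on them.

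At the level of probes, 869 of the 30841 member probes (2.82%) passed the first stage, 413 higher and 456 lower in PNS rats, against 4.86% of all 375110 probes (2.61% higher and 2.25% lower). With median centring 430 member probes were higher and 168 lower (background 5.16%, of which 2.29% higher and 2.88% lower), and with normexp correction 303 passed, 0.600% of the member probes higher and 0.383% lower (background 0.848%, of which 0.14% higher and 0.708% lower). With the slide as a replicate block 960 passed, 473 higher and 487 lower (background 6.14%, of which 3.24% higher and 2.91% lower). Without C141 it was 1677, 1274 higher and 403 lower (background 9.2%, of which 3.88% higher and 5.32% lower), and without the 3 arrays of narrow spread 3521, 1125 higher and 2396 lower (background 10.1%, of which 4.79% higher and 5.32% lower). The direction among member probes thus changed with the scaling and the arrays, as it did among the runs. In the fit of all 8 arrays the 869 probes lay in 556 members. In 258 of them all such probes were higher, in 255 all were lower and in 43 they went both ways. At least 3 such probes were found in 69 members, and no member held more than the 15 of the chr13 run. These counts of runs were not made over all runs, so they describe the members without a background. By probe, the share in the fit of all 8 arrays was lower in members than over all probes (2.82 against 4.86%). It was also lower with median centring (1.94 against 5.16%), with the slide block (3.11 against 6.14%) and without C141 (5.44 against 9.2%). With normexp correction it was higher (0.98 against 0.848%), as it was without the 3 arrays of narrow spread (11.4 against 10.1%). In the fit of all 8 arrays, a difference of at least 0.5 in the run mean was seen in 23 members (1.15%), 6 higher and 17 lower, against 0.656% of all runs.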

How the data were processed

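MeDIP-chip arrays of PFC DNA from 4 Ctrl and 4 PNS rats (PND62) were analyzed. Per the file headers, the deposited intensity values were extracted by the authors with Feature Extraction 10.7.3.1, which corrects the background and balances the dyes of an array. The deposited log10 ratio of the software and the deposited log2 value table, quantile-normalized by the authors, were used only as alternatives. The authors' Bayesian deconvolution and their rank test over probes of a promoter, which takes neighbouring probes as independent, were not repeated.

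Control spots (5503 of 420288) and 403 non-uniform outlier spots were left out, log2 ratios of bound (Cy5) over input (Cy3) processed signal were averaged by probe, and 375110 probes were quantile-normalized. PNS and Ctrl run means were fitted in R 4.3.3 by lmFit and eBayes of limma 3.58.1 (Benjamini-Hochberg over all 20412 runs), without a block in the main comparison. Named runs were those of highest signal, of largest difference among runs without overlap of groups, at the limits, and of extreme evenness, length or spread. The members and lists were chosen with earlier results of these data known.

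Arrays give no read depth, and their number limits the precision. No arrays held identical values. In simulated arrays a log2 shift of 2 was given to 200 runs, and the fit found 200 of them among 264 calls and made 0 calls when nothing was shifted. This shift was larger than any run difference between PNS and Ctrl in the main comparison (-1.13 to 0.81). The simulation therefore cannot show whether differences of the observed size would be found.

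Alternatives included the log ratio of the software, median centring, normexp correction, spot flags, bright input probes, other limits of the rule, a slide block, an intensity trend, and each rat left out. Normexp took median spot signals in place of the planned mean signals and was followed by median centring in place of quantile normalization. The authors' value table and the removal of 3 arrays were chosen after seeing the data.

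Same-slide arrays, placed by the labels and file headers, deviated from their group means with correlations of 0.37, -0.42, 0.42 and 0.43, against -0.05 between slides.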

Additional observations from a re-analysis of the deposited data

Results flagged for a closer look

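In 16 of 90 groups of 4 rats examined, 1 rat lay far from the other 3 (a gap over 0.829 of the range). Chance would give 4.5 in independent groups chosen without regard to their values, which these were not, since they shared 8 arrays and many runs were named for their spread or for separated groups. In 14 of them that rat was C141, the PNS rat with the narrowest spread of log2 ratios, and each time it was the lowest. Over the members its median log2 ratio was 0.43 against 1.09 to 1.11 in the other PNS rats, its median bound signal lay 1.02 above the array median against 2.60 to 2.87, and 52.5% of the members were in the top 10% of its array against 87.6 to 90.2%.

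Among single runs, C141 read 2.55 at chr5:135205476-135206712, where the other PNS rats read at least 3.41, 1.74 at chr3:41363191-41364420 (at least 2.91), 1.82 at chr3:98403033-98404286 (at least 3.04) and 0.81 at chr9:90043457-90044117 (at least 2.38). It read -0.19 at chr1:206801805-206802933 (at least 1.70), 0.35 at chr2:127651446-127652679 (at least 1.30), 0.31 at chr5:148718342-148719073 (at least 1.10) and 0.27 at chr4:6207040-6216226 (at least 1.14). At runs whose groups did not overlap it read 0.20 at chr19:57356588-57357561 (at least 1.11), 0.70 at chr9:90579365-90580504 (at least 1.46) and 0.22 at chr5:152318551-152319473 (at least 0.75).

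The other 2 were C145, which read 1.14 at chr15:34029020-34030201 against at most 0.90 in the other PNS rats, and C180, which read 0.14 at chr4:4369073-4370206 against at least 0.53 in the other Ctrl rats.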

How the results depend on the processing

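The limits were those of 8 arrays, of which 3 had a narrow spread, and of a rule that rests on a continuous signal. The number of members was 1011 at the top 5%, 3848 at the top 20% and 1163 with bright input probes alone, and lay within 1.5 times the main count in the other settings. The short-minus-60-base difference was 0.53 with normexp correction and 0.51 without the 3 arrays of narrow spread. It was 0.16 with bright input probes (523 runs) and 0.81 in the authors' value table (1191 runs), against 1233 runs in the main setting.

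For members with a limma p of at most 0.05 (36, of which 15 higher and 21 lower), median centring gave 13 with 1 lower, normexp 16 with 4 lower, bright input probes 32 lower, an intensity trend 12 lower, the slide as a replicate block 77 (23 higher and 54 lower) and as a random replicate block 56 (36 lower). Without the 3 arrays it was 484 (154 higher and 330 lower), and 314 had an adjusted p below 0.2, against 0 in every other setting. With 1 rat left out at a time the count ranged from 17 to 245, with 5 to 237 higher and 8 to 41 lower. The lowest count came without C144 and the highest without C141, and without C182 it was 55. Over all 20412 runs the trend gave 827 (315 lower) and the random replicate block 1165 (562 lower). Bright input probes gave 48 of 1986 members (32 lower) and 436 of 18710 runs (201 lower). With these probes the share called lower was larger in members than over all runs. With 1 rat left out, 384 to 2305 of all runs had such a p, 201 to 1081 higher and 183 to 1224 lower. Here too the lowest count came without C144 and the highest without C141. First-stage probes (869) numbered 303 with normexp, 319 at a minimum difference of 1, 3521 without the 3 arrays, and 576 to 1677 with 1 rat left out (236 to 1274 higher and 270 to 665 lower). Over all 375110 probes a minimum difference of 1 left 8772, and leaving out 1 rat gave 12849 to 34516. The cause of these changes was not tested.

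The median difference of the members ranged from -0.11 to 0.16 with 1 rat left out, 0.16 without C141, and was 0.19 with median centring and 0.06 with normexp. For the 12 named runs without overlap, 207 of 228 alternative values kept the direction and the side of the limit, 20 lost the p of at most 0.05, 1 gained it and 0 reversed. These runs were chosen for groups without overlap, so leaving out arrays could not turn the sign and the block and trend kept the same difference, and the absence of reversals is no sign of stability there. Median centring and normexp gave most of the losses among the runs lower in PNS.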
